A study of Homo sapiens with 6 samples.

Results

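The human genes whose symbol begins with UBE2 encode the main family of ubiquitin-conjugating (E2) enzymes. They were followed here in ARPE-19, an established cell line from human retinal pigment epithelium, before and after exposure to a source of hydrogen peroxide. Every probe set whose only gene symbol is UBE2 followed by a letter was taken, which gave 77 probe sets of 29 genes out of 18132 genes with a probe set of their own. Of these 29 genes, 26 were bright enough to test. The protocol gives every dish a transfection with a green fluorescent protein plasmid. After 48 h the cells received 10 mU/ml glucose oxidase, which produces hydrogen peroxide from glucose in the medium, for 3 h (the 3 h group, 3 arrays) or none (the 0 h group, 3 arrays). For the 3 h arrays, however, the sample descriptions give green fluorescent protein with alpha satellite as the construct, so exposure and construct cannot be told apart as causes of a difference. The labels name no group kept for 3 h without enzyme. They also do not say that replicates were separate cultures, so p-values measure only the spread between these arrays, which may be technical.

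Ubiquitin reaches a protein in 3 steps. An E1 enzyme activates it, an E2 enzyme carries it as a thioester on a cysteine, and an E3 ligase brings the loaded E2 to the substrate. The E2 largely sets which lysine of ubiquitin is used for the next link, and with it whether the chain marks the protein for the proteasome or serves signalling and DNA repair. A few E2 enzymes carry ubiquitin-like proteins such as NEDD8 or ISG15. The E2 cysteine is one of the thiols that peroxide can oxidise, a matter of protein chemistry that transcript levels do not measure.

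All values are log2 intensities of the array, and changes are 3 h minus 0 h. Between arrays of a group the values correlated at 0.996 to 0.998, and between groups at 0.979 to 0.983. RNA spikes added in known amounts read lower at 3 h: 24 of 24 poly-A spikes were lower on every 3 h array (median change -0.60), and so were 17 of 18 hybridization spikes (median -0.31). The actin signal from the 5′ end minus that from the 3′ end was -2.06 ± 0.07 at 0 h and -1.20 ± 0.06 at 3 h (SD, n = 3), and for GAPDH -0.39 ± 0.05 and -0.13 ± 0.04. Neither pair of groups overlaps. These control readings moved with the groups, and their part in the changes below was not tested. Of 13 markers of pigment epithelium, 10 were above the brightness floor of 4.64, of which KRT8, KRT18, MITF and OTX2 rose and SERPINF1 and RDH11 fell. RPE65, RLBP1 and LRAT, which define the mature visual cycle, were under it. The log2 of that list's summed level ran from 13.20 to 13.24 at 0 h and from 13.47 to 13.54 at 3 h. Unlogged values were summed, so the sum mostly follows the brightest genes, the keratins KRT18 (12.22 at 0 h) and KRT8 (11.48). BEST1, TTR, PMEL and TYR were above the floor and not called. Markers of other cell types were above the floor for 3 of 4 blood genes (PTPRC under it), 2 of 3 endothelial genes (CDH5 under it), 4 of 4 photoreceptor and neuron genes and 1 of 4 fibroblast genes. The summed levels overlapped between groups for blood and endothelium. For photoreceptor and neuron genes they ran from 7.80 to 7.83 at 0 h and from 7.59 to 7.68 at 3 h, and for fibroblast genes from 5.97 to 6.07 and from 6.15 to 6.21. Whether these shifts bear on the changes below was not tested.

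E2 genes changed in both directions. UBE2R2, UBE2H, UBE2O, UBE2S, UBE2Q1, UBE2Z and UBE2G2 rose, UBE2E1, UBE2V2, UBE2N, UBE2Q2, UBE2T, UBE2F and UBE2A fell, and 12 genes did not pass the test (limma, Benjamini-Hochberg over 12221 genes, adjusted p under 0.05). The 14 calls were 53.8% of the tested E2 genes. Over all genes tested, 51.3% were called, 20.6% as higher and 30.8% as lower, so the share of E2 genes that changed was close to the background. In 18 of the 26 genes (69.2%) all 3 h values lay on one side of all 0 h values, as in 60.5% of all genes tested. The median change was -0.02 for E2 genes and -0.04 for all tested genes, and the median absolute change was 0.24 and 0.20. Changes ran from -0.42 (UBE2E1) to 0.47 (UBE2R2), and none of the 14 called genes reached 1.5-fold. The same was true of 82.4% of all called genes. The median SD of an E2 gene was 0.05 among 0 h arrays and 0.07 among 3 h arrays.

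**Figure D1:**
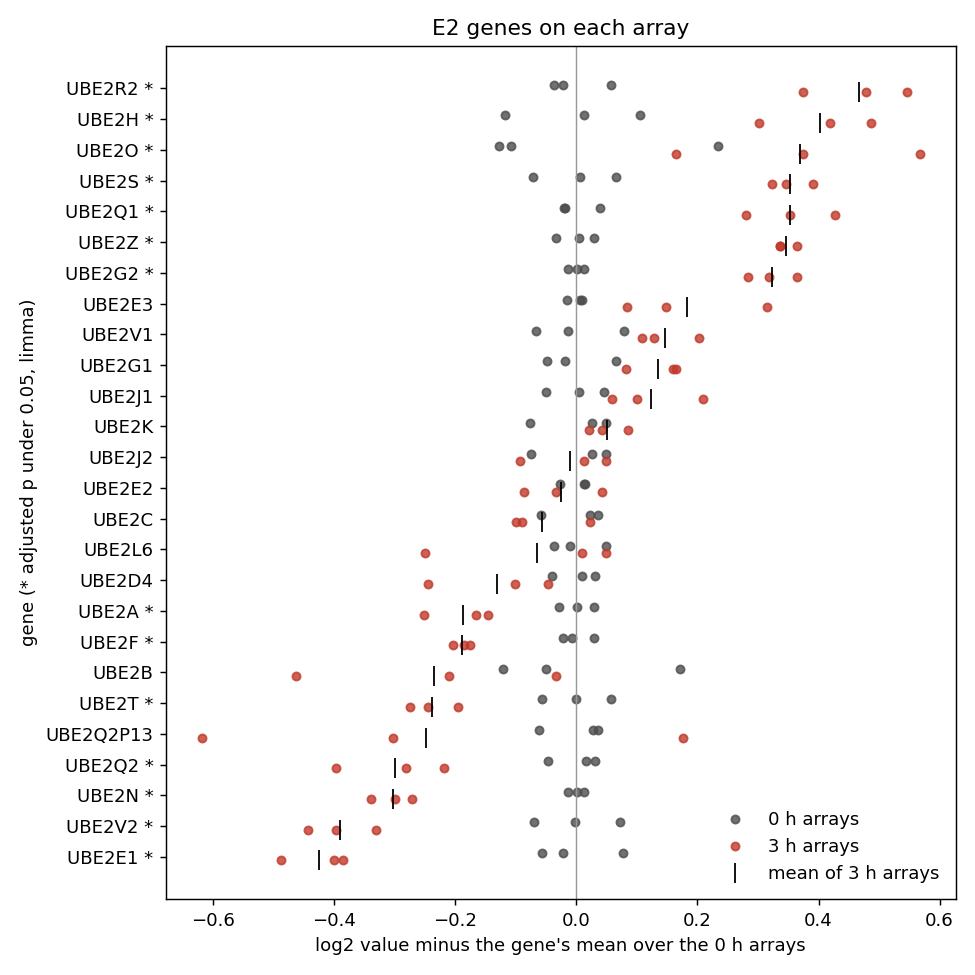
Log2 value of each tested E2 gene on each array, minus that gene's mean over the 0 h arrays, for 3 arrays at 0 h (grey) and 3 at 3 h (red), with a vertical bar at the 3 h mean and an asterisk for an adjusted p under 0.05 in limma. From UBE2R2 (0.47) at the top to UBE2E1 (-0.42) at the bottom, 7 genes are marked on each side of 0, and UBE2O is the marked gene whose groups overlap.

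One caution applies to calls in both directions. A gene was read from its brightest probe set. The suffix _s_at or _x_at was on that probe set for 6 of the 7 lower calls and 3 of the 7 higher calls. It was also there for 5 of the 12 genes without a call. The maker uses these suffixes for probes that can match transcripts of more than 1 gene. The share of such probe sets over all tested genes is not given here. Several E2 genes have processed pseudogenes or near-identical relatives. When such probe sets were set aside, 21 genes could be tested, 7 of the 14 calls held (UBE2H, UBE2O, UBE2Q1, UBE2Z, UBE2G2, UBE2F and UBE2T), and UBE2J2 was added as higher. Lower calls thus went from 7 to 2 in E2 genes and from 3759 to 2964 over all genes. Higher calls went from 7 to 6 in E2 genes, UBE2J2 among them, and from 2514 to 2316 over all genes. These are counts and not shares, since 21 E2 genes were tested instead of 26. The matching number over all genes is not given. The decreases of UBE2A, UBE2N, UBE2Q2 and UBE2V2 and the increase of UBE2R2 were not called by the remaining probe sets, and UBE2E1 and UBE2S had none left above the floor.

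The promoters of 4 called genes are shown as the sequence the members do and do not share. UBE2S and UBE2Z rose, and UBE2T and UBE2F fell. These are the called genes with 1 RefSeq promoter window (GRCh38.p14) and a CCAAT box in it, and they were chosen after their values were seen. Each window is the 250 bases before the transcription start, written 5′ to 3′ on the gene's strand. Capitals mark 3 motifs. The first is the CCAAT box, bound by NF-Y, which reads ATTGG in reverse. The second is TTTGAA, a cell cycle homology element of genes active in G2 and mitosis. The third is TATAAA, known as the TATA box. UBE2S lies at chr19:55407789-55408038 on the minus strand, UBE2Z at chr17:48908157-48908406 on the plus strand, UBE2T at chr1:202341937-202342186 on the minus strand and UBE2F at chr2:237966764-237967013 on the plus strand.
UBE2S: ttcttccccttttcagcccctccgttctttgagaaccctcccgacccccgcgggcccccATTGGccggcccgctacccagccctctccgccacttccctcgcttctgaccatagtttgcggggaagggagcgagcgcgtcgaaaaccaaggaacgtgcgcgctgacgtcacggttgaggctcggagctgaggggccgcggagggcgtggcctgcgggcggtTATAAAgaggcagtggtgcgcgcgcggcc
UBE2Z: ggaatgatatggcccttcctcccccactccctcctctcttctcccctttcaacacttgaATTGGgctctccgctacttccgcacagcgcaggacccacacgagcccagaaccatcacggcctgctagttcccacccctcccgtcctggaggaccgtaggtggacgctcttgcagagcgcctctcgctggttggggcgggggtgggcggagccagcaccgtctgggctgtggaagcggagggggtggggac
UBE2T: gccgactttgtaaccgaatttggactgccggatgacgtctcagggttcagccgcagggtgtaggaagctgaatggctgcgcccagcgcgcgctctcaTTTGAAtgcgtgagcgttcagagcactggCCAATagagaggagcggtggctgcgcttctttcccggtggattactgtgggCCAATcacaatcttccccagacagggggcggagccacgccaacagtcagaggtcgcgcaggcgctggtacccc
UBE2F: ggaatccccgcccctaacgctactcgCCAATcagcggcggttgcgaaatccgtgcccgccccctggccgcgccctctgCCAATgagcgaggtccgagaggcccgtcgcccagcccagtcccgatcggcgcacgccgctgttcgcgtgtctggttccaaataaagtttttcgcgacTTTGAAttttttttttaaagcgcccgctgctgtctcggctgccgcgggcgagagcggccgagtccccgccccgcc
UBE2T and UBE2F, which fell, each hold 2 CCAAT boxes in the forward direction and 1 TTTGAA. In UBE2T the CCAAT boxes begin 124 and 73 bases before the start and TTTGAA begins 153 bases before it. In UBE2F they begin 224 and 172 bases before the start, with TTTGAA 75 bases before it. UBE2S and UBE2Z, which rose, each hold 1 CCAAT box in reverse, 191 bases before the start, and UBE2S also has TATAAA 29 bases before the start. CCAAT and TTTGAA are also together in the window of UBE2U, which was under the floor. UBE2A, UBE2N and UBE2Q2, which fell, and UBE2G2, UBE2O and UBE2R2, which rose, hold none of these motifs. UBE2E1, which fell, has a window with CCAAT and TATAAA but no TTTGAA. Whether the motifs go with the direction of change was not tested.

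Promoter windows were listed for 22 of the 29 genes, 29 windows in all. UBE2H, UBE2Q1, UBE2C, UBE2B, UBE2Q2P13, UBE2V2 and UBE2NL are not among them. CCAAT on either strand was in 7 of the 29 windows, against 32.0% of 35116 windows of all genes, and belonged to 2 genes that rose and 3 that fell. TTTGAA was in 3 windows (13.3% of all windows), TATAAA in 2 (10.7%), the antioxidant response element core TGACNNNGC in 3 (10.9%), the NRF1 core GCGCATGCG in 1 (1.64%) and the E-box CACGTG in 0 (6.34%). All were searched on both strands, and no motif is contained in another. The 3 windows with TGACNNNGC were those of UBE2J1, UBE2K and UBE2Q2, and of these genes only UBE2Q2 was called. The median number of CpG dinucleotides was 28 (14 to 33) in windows of genes that rose and 26.5 (5 to 33) in those of genes that fell, against 21 and 19 over all tested genes. In windows of E2 genes without a call it was 31.5 (16 to 44), the highest of the 3, against 19.

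Among E2 enzymes that build chains for degradation, 2 of 5 tested genes rose and none fell. Over all genes tested, 20.6% rose and 30.8% fell. This class and those below are small, and none was tested against that background. UBE2R2, a partner of cullin-RING ligases and the close relative of CDC34, read 9.13, 9.15 and 9.22 at 0 h and 9.54, 9.71 and 9.65 at 3 h. Its 3 h values all lie above its 0 h values, a change of 0.47 (SE 0.06, 1.38-fold, adjusted p 0.000488). A second probe set of the gene gave 0.17 (adjusted p 0.0604 in the fit of single probe sets). UBE2S, which extends K11-linked chains for the anaphase-promoting complex, read 10.62, 10.68 and 10.54 at 0 h and 10.96, 11.01 and 10.94 at 3 h. All 3 h arrays were higher, by 0.35 (SE 0.06, adjusted p 0.00119). UBE2C, which starts those chains, did not pass the test: 10.17, 10.16 and 10.08 at 0 h and 10.16, 10.05 and 10.04 at 3 h, a change of -0.06 (SE 0.06, adjusted p 0.456). UBE2G1, a chain builder that works with cullin-RING ligases, changed by 0.14 (adjusted p 0.0791, but 0.22 and called as the mean over its probe sets and 0.16 and called with median centring) and UBE2K, which makes K48-linked chains, by 0.05 (adjusted p 0.490). The 0 h and 3 h values of UBE2G1 do not overlap, while those of UBE2K do.

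UBE2D and UBE2E enzymes serve many E3 ligases. Of this class 4 genes could be tested, and 1 fell. UBE2E1 read 11.65, 11.62 and 11.75 at 0 h and 11.18, 11.27 and 11.29 at 3 h. Each 3 h array lay below each 0 h array, and the change of -0.42 (SE 0.06, 1.34-fold lower, adjusted p 0.000608) was the largest decrease among E2 genes. It rests on 1 probe set above the floor. UBE2E3 read 10.85, 10.85 and 10.83 at 0 h and 11.16, 10.93 and 10.99 at 3 h, higher on every 3 h array, with a change of 0.18 (SE 0.07) whose adjusted p of 0.0530 missed the threshold. It passed with a change of 0.23 when 3 h replicate 2 was left out. UBE2E2 changed by -0.03 (adjusted p 0.721) and UBE2D4 by -0.13 (adjusted p 0.125). UBE2D1, UBE2D2 and UBE2D3 were not analysed here.

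The RAD6 enzymes and UBE2H modify histones among other substrates, and 1 of these 3 genes rose and 1 fell. UBE2H, the E2 of the CTLH ligase, which is needed for red cell maturation, read 8.35, 8.45 and 8.22 at 0 h and 8.76, 8.64 and 8.83 at 3 h. The groups do not overlap, and the change was 0.40 (SE 0.08, adjusted p 0.00248). UBE2A, a RAD6 enzyme of DNA damage tolerance and histone H2B ubiquitination, read 9.89, 9.86 and 9.91 at 0 h and 9.63, 9.74 and 9.72 at 3 h. It fell by 0.19 on the log2 scale (SE 0.06, adjusted p 0.0198). That call was lost without 0 h replicate 1 (-0.19), 0 h replicate 3 (-0.17) or 3 h replicate 1 (-0.16), and the mean over its 3 probe sets changed by -0.01. UBE2B, the second RAD6 enzyme, read 10.10, 10.03 and 10.33 at 0 h and 9.69, 10.12 and 9.94 at 3 h. These groups overlap (change -0.24, SE 0.12, adjusted p 0.121). UBE2B passed the test at -0.34 when 3 h replicate 2 was left out and at -0.19 as the mean over its probe sets. That mean takes in probe sets under the floor (4.31 and 2.75 at 0 h). The 2 probe sets above the floor were not called when each was fitted on its own.

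At the endoplasmic reticulum, E2 enzymes mark misfolded proteins for removal, and 1 of 3 genes rose. UBE2G2, a soluble E2 that serves ligases such as SYVN1, read 7.78, 7.80 and 7.79 at 0 h and 8.11, 8.08 and 8.16 at 3 h. Every 3 h array was higher, by 0.32 (SE 0.05, adjusted p 0.00110). UBE2J1 and UBE2J2, which sit in the membrane by a tail anchor, changed by 0.12 (adjusted p 0.123) and -0.01 (adjusted p 0.904).

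For K63-linked chains, UBE2N works as a dimer with UBE2V1 or UBE2V2, which lack the catalytic cysteine. UBE2N and UBE2V2 fell, and UBE2V1 did not pass the test. UBE2N, used in NF-kB signalling and DNA damage tolerance, read 9.99, 9.97 and 10.00 at 0 h and 9.65, 9.71 and 9.69 at 3 h. The groups lie apart, with a change of -0.30 (SE 0.05, adjusted p 0.00138). UBE2V2, the partner used mainly in DNA damage tolerance, read 10.77, 10.71 and 10.85 at 0 h and 10.33, 10.45 and 10.38 at 3 h. All 3 h arrays were lower, a change of -0.39 (SE 0.06, 1.31-fold lower, adjusted p 0.000957). UBE2V1, the partner used mainly in signalling, read 9.43, 9.34 and 9.29 at 0 h and 9.46, 9.48 and 9.55 at 3 h, a change of 0.15 (SE 0.06, adjusted p 0.0729). A brighter probe set shared by UBE2V1 and the read-through symbol PEDS1-UBE2V1, and so outside the selection, went from 9.63 to 10.11, and 3 more such probe sets, of which 2 hold identical values, changed by 0.05, 0.05 and 0.13. UBE2NL, a retrocopy of UBE2N, was under the floor at 3.23 and 3.15.

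Of the E2 enzymes of ubiquitin-like proteins, and UBE2Z beside them, 1 rose and 1 fell among 3 tested. UBE2Z carries ubiquitin or FAT10 and is loaded by the E1 enzyme UBA6. It read 10.07, 10.01 and 10.05 at 0 h and 10.38, 10.41 and 10.38 at 3 h. The 3 h arrays were higher and differed little among themselves, and the change was 0.35 (SE 0.05, adjusted p 0.000717). UBE2F, the NEDD8 carrier that serves the cullin CUL5 with RNF7, read 9.04, 9.00 and 8.99 at 0 h and 8.82, 8.81 and 8.83 at 3 h. Its groups lie apart, and it fell by 0.19 on the log2 scale (SE 0.05, adjusted p 0.0134). Without 0 h replicate 1 the change was -0.17 and missed the threshold. UBE2L6, the interferon-induced carrier of ISG15, read 10.46, 10.43 and 10.52 at 0 h and 10.52, 10.48 and 10.22 at 3 h, a change of -0.06 (adjusted p 0.545) that turned to 0.03 without 3 h replicate 3. UBE2M, the second NEDD8 carrier, and UBE2L3 were not analysed here.

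UBE2T, the E2 of the Fanconi anaemia pathway of DNA crosslink repair, read 10.11, 10.05 and 9.99 at 0 h and 9.81, 9.78 and 9.86 at 3 h. All 3 h arrays were lower, a change of -0.24 (SE 0.06, adjusted p 0.00753), and this call held when any single array was left out and without _s_at and _x_at probe sets.

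The remaining members are large or unusual E2 enzymes. UBE2O, which acts as E2 and E3 in one chain and clears unassembled proteins, read 5.79, 5.45 and 5.43 at 0 h and 5.93, 6.13 and 5.72 at 3 h. The lowest 3 h array lay under the highest 0 h array, and the change was 0.37 (SE 0.12, adjusted p 0.0348). That call was lost without 0 h replicate 2 (0.31), 0 h replicate 3 (0.30), 3 h replicate 1 (0.37) or 3 h replicate 2 (0.27), and also under quantile normalization (0.33), with array weights (0.35) or without the brightness floor (0.37). UBE2Q1 read 8.77, 8.82 and 8.76 at 0 h and 9.07, 9.21 and 9.14 at 3 h, higher on all 3 h arrays by 0.35 (SE 0.06, adjusted p 0.00127). Its relative UBE2Q2 read 8.50, 8.48 and 8.42 at 0 h and 8.25, 8.07 and 8.19 at 3 h, lower on all 3 h arrays, a change of -0.30 (SE 0.06, adjusted p 0.00439) that became -0.02, not called, as the mean over its probe sets. UBE2Q2P13, a pseudogene of UBE2Q2 that the symbol rule takes in, read 5.13, 5.04 and 5.14 at 0 h and 4.48, 4.80 and 5.28 at 3 h. Its 3 h arrays were scattered on both sides (change -0.25, adjusted p 0.246), and the change was -0.46 and passed the test without 3 h replicate 3. UBE2QL1 (3.38 at 0 h and 3.47 at 3 h) and UBE2U (2.41 and 2.22) were under the floor on average and were not tested. UBE2W was not analysed here.

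The changes of related E2 genes were set against each other. The difference between 2 genes on the same array was compared between the groups with a two-sided exact permutation test, which cannot go below p = 0.1 with 3 arrays against 3. In 8 of the 10 pairs the groups did not overlap, each with an exact permutation p of 0.1 (0.125 after Benjamini-Hochberg adjustment over the 10 pairs). No pair could pass a threshold of 0.05. The groups of single genes were apart for 60.5% of all genes tested, no share for other pairs of genes was computed, and 3 of the 8 pairs share UBE2E1, UBE2E2 and UBE2E3. UBE2Q1 gained 0.65 on UBE2Q2 (SE 0.10). UBE2V1 gained 0.54 on UBE2V2 (SE 0.08), and UBE2R2 gained 0.51 on CDC34 (SE 0.07). UBE2E1 minus UBE2E3 changed by -0.61 (SE 0.11) and UBE2E1 minus UBE2E2 by -0.40 (SE 0.04). UBE2C minus UBE2S, the starting and extending enzymes of 1 ligase rather than close relatives, changed by -0.41 (SE 0.05). UBE2E2 minus UBE2E3 changed by -0.21 (SE 0.11) and UBE2G1 minus UBE2G2 by -0.19 (SE 0.04). UBE2J1 minus UBE2J2 (0.13, SE 0.09, exact p 0.2) and UBE2A minus UBE2B (0.05, SE 0.12, exact p 0.8) overlapped. Several of these sizes depended on the probe sets. The mean over all probe sets of each gene, which takes in those under the floor, was also used. With it UBE2Q1 minus UBE2Q2 was 0.16, UBE2G1 minus UBE2G2 was -0.06, and UBE2J1 minus UBE2J2 turned to -0.19. UBE2E1 minus UBE2E3 (-0.39), UBE2V1 minus UBE2V2 (0.36) and UBE2R2 minus CDC34 (0.35) kept their direction. The mean of UBE2E1 includes a probe set under the floor (2.83 at 0 h).

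**Figure D2:**
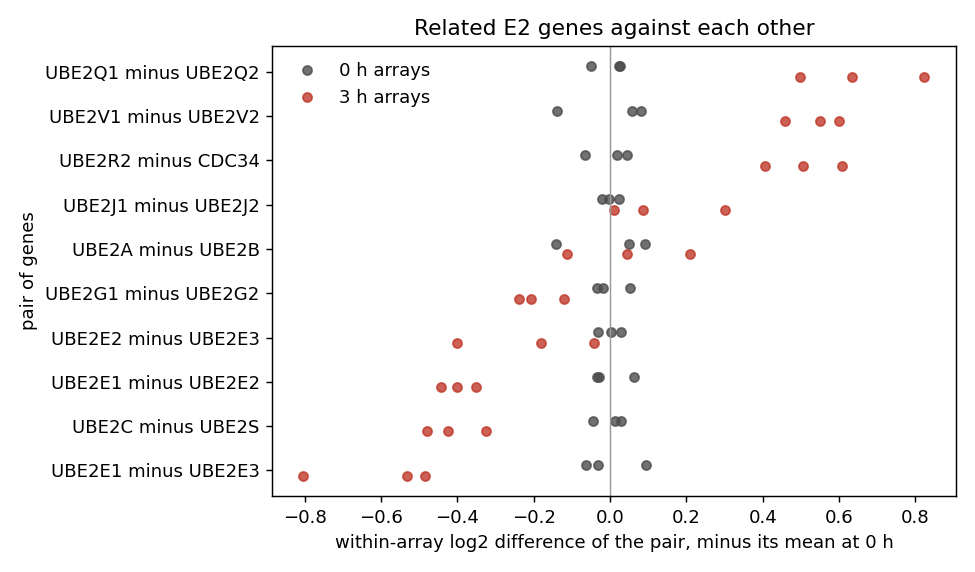
Within-array log2 difference of each pair of E2 genes, minus its mean over the 0 h arrays, for 3 arrays at 0 h (grey) and 3 at 3 h (red). The groups are apart for 8 pairs, from 0.65 for UBE2Q1 minus UBE2Q2 to -0.61 for UBE2E1 minus UBE2E3, and mixed for UBE2J1 minus UBE2J2 and UBE2A minus UBE2B.

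The other probe sets of a gene were read as a check, each fitted on its own. Of 69 E2 probe sets above the floor, 35 were called (50.7%), against 51.7% of 27235 probe sets tested. For UBE2F, all 7 probe sets fell, with changes from -0.58 to -0.19. All 4 of UBE2Z rose (0.35 to 0.79), of which 2 hold identical values, and so did 3 of 3 for UBE2G2 (0.32 to 0.49). For UBE2H 4 of 5 rose, and the fifth read 0.21. These genes therefore gave the same direction throughout. Probe sets were split for UBE2Q2, where 2 fell (-0.30 and -0.29) and 1 rose (0.47), and for UBE2Q1, where the second read -0.08 beside 0.35. UBE2A read -0.19, 0.03 and 0.13, with 1 of 3 called. The second probe set of UBE2V2 read -0.04 beside -0.39, and UBE2N read -0.30, -0.22 and -0.07, the first pair called. Some genes without a call had called probe sets: 2 of 5 rose for UBE2J2 (0.24 and 0.43), 1 of 2 for UBE2G1 (0.30), and 1 of 5 fell for UBE2K (-0.42).

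The disagreement itself was tested as the within-array difference between each other probe set and the brightest. It was called for 13 of 42 such differences in E2 genes, and for 34.3% of 14975 over all genes, a similar share. The largest were in UBE2Q2 (0.77, adjusted p 0.00137), UBE2K (-0.47, adjusted p 0.0112), UBE2Z (0.45, adjusted p 0.00254), UBE2J2 (0.44, adjusted p 0.00665) and UBE2Q1 (-0.43, adjusted p 0.00289). The 13 came down to 7 without 0 h replicate 3 or without 3 h replicate 3. Probe sets of a gene can read different ends or splice forms, which the files do not tell apart.

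**Figure D3:**
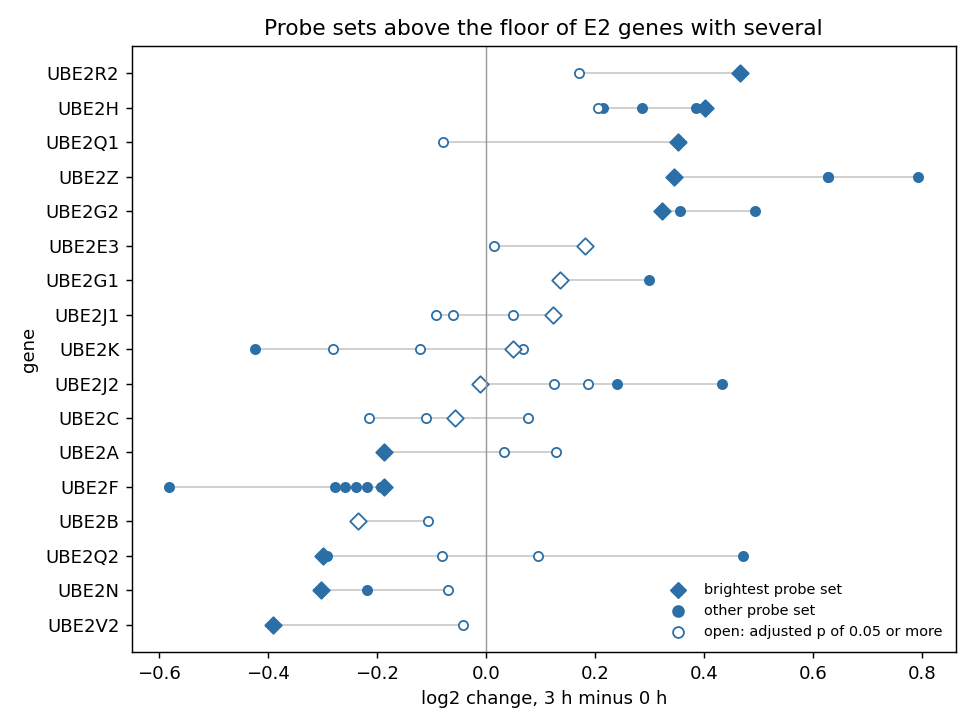
Log2 change, 3 h minus 0 h, of each probe set above the floor for the 17 E2 genes with 2 or more, with a diamond for the brightest probe set and a filled symbol for an adjusted p under 0.05 when each probe set was fitted on its own. The 7 probe sets of UBE2F lie below 0 and the 4 of UBE2Z above it (2 coincide), while those of UBE2Q2 run from -0.30 to 0.47.

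Genes that act around the E2 step were read from 13 lists with 90 genes. Among the 80 that could be tested there were 13 increases and 29 decreases, and 38 genes missed the threshold. The called share was 52.5%, with a median change of -0.08, against 51.3% and -0.04 over all genes tested. Among E1 enzymes 1 of 7 rose and 3 fell. UBA1, the main ubiquitin E1, read 8.51, 8.39 and 8.50 at 0 h and 8.84, 8.83 and 9.00 at 3 h. It was higher on every 3 h array, by 0.42 (SE 0.07, adjusted p 0.00101). UBA6, the E1 that loads UBE2Z, fell by 0.23 on the log2 scale (adjusted p 0.00996), in the opposite direction from UBE2Z. Both subunits of the NEDD8 E1, which loads UBE2F, fell with it: NAE1 changed by -0.36 (adjusted p 0.000957) and UBA3 by -0.23 (adjusted p 0.0151). The call of UBA3 was lost without 0 h replicate 1 (-0.20), and with the trend on gene density removed UBA6 and UBA3 each changed by -0.10 and were not called. Of 6 modifiers, SUMO2 fell (-0.27, adjusted p 0.0121; -0.10 and not called as the mean over its probe sets) and 5 did not pass. Among 8 genes with an E2 fold under other symbols, 4 fell: BIRC6 (-0.71), the autophagy E2 ATG10 (-0.42), the UFM1 carrier UFC1 (-0.39) and the inactive relative TSG101 (-0.24). BIRC6, a giant enzyme that is E2 and E3 in one, read 7.20, 7.20 and 7.07 at 0 h and 6.38, 6.39 and 6.56 at 3 h. When probe sets with the suffix _a_at, whose probes match several transcripts of 1 gene, were also set aside, BIRC6 changed by 0.10, and the mean over probe sets of TSG101 changed by 0.04, neither called.

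E3 ligases, with subunits, adaptors and other genes of their pathways, were listed by the E2 they work with. Of 59 such genes tested, 12 rose and 21 fell, with a median of -0.07. The called share was 55.9%, beside 51.3% of all tested genes. For genes of the cullin-RING ligases served by UBE2F and UBE2R2, 5 of 10 fell and none rose (median -0.20). That list had a called share of 50%, beside 51.3% of all tested genes (30.8% lower and 20.6% higher). DCUN1D1, which promotes neddylation, changed by -0.46, CUL5 by -0.46, and the RING subunits RBX1 and RNF7 by -0.45 and -0.43. CUL5 read 8.26, 8.31 and 8.23 at 0 h and 7.81, 7.81 and 7.81 at 3 h (adjusted p 0.000208). CUL5 and RNF7, the partners of UBE2F, therefore fell beside it, while UBE2R2 rose and its RING partner RBX1 fell. DCUN1D1 changed by -0.12 and was not called without _s_at, _x_at and _a_at probe sets.

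For the partners of UBE2N and its variants all 5 tested were called, 4 lower and 1 higher (median -0.34), where 51.3% of all tested genes were called and 30.8% were lower. SHPRH, a ligase of replication damage tolerance, read 6.12, 6.10 and 6.07 at 0 h and 5.10, 5.42 and 5.09 at 3 h, a change of -0.90 (SE 0.09, adjusted p 0.000128). RNF8, a ligase at DNA breaks, changed by -0.50 and TRAF6, a ligase of NF-kB signalling, by -0.34. CHFR, a mitotic checkpoint ligase, rose by 0.30. RNF8 was not called as the mean over its probe sets (-0.10). For UBE2A and UBE2B 2 of 6 partners rose and 3 fell (median -0.28), a called share of 83.3% beside 51.3% of all tested genes. RAD18, which ubiquitinates PCNA, changed by -0.50, RNF20, the histone H2B ligase, by -0.46, UBR2 by -0.42 and UBR4 by 0.47. FANCL, the ligase of UBE2T, read 8.82, 8.59 and 8.74 at 0 h and 7.98, 8.07 and 8.01 at 3 h. It fell with its E2, by 0.70 on the log2 scale (adjusted p 0.000125), as 1 of 2 tested genes of that list.

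The anaphase-promoting complex, which uses UBE2C and UBE2S, had 5 of 12 listed genes lower and 1 higher (median -0.11). This is a called share of 50%, beside 51.3% of all tested genes. ANAPC10 changed by -0.59, ANAPC4 by -0.41, CDC23 by -0.29 and CDC16 by -0.24. The fifth decrease was that of ANAPC11 (-0.21) and the increase that of FZR1 (0.22), both named after their values were seen. UBE2S, the E2 of this complex, rose beside them. CDC16 was not called without 0 h replicate 2 (-0.20). As the mean over its probe sets CDC16 changed by 0.05, and without _s_at and _x_at probe sets it changed by -0.05 and CDC23 by 0.01, none of them called. For ligases of the endoplasmic reticulum and genes that work with them, 1 of 6 rose and 1 fell (median -0.02, 33.3% called). The ligase SYVN1 changed by 0.30 and DERL1, not itself a ligase, by -0.18. The SYVN1 call was lost without 0 h replicate 3 (0.25) or 3 h replicate 2 (0.21), and the DERL1 call without any 1 array other than 3 h replicate 2 (-0.20 to -0.14). As means over their probe sets they changed by 0.18 and -0.06, neither called.

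TRIM25, a ligase reported to work with UBE2L6 in ISG15 transfer, had the largest change of all partner genes. It read 8.88, 8.86 and 8.92 at 0 h and 9.96, 10.03 and 10.01 at 3 h, a change of 1.11 (SE 0.05, 2.16-fold, adjusted p 6.56e-06). HERC5, the main ISG15 ligase, fell by 0.52 on the log2 scale (adjusted p 0.00188), and UBE2L6 itself did not pass the test. UBE2L3 serves ligases that pass ubiquitin through a cysteine of their own. On its list of ligases and subunits, 4 of 7 tested genes rose and none fell (median 0.30). The called share was 57.1% beside 51.3% of all tested genes. RBCK1 and RNF31, subunits of the linear chain ligase, changed by 0.55 and 0.30, HUWE1 by 0.46 and ARIH2 by 0.31. SHARPIN, on the same list, changed by -0.14 and was not called. ARIH2 changed by 0.17 and was not called without _s_at, _x_at and _a_at probe sets. For UBE2D enzymes 1 of 5 rose and 1 fell (median 0.03, 40% called). MDM2, the p53 ligase, changed by 0.51 (0.41 and not called without 0 h replicate 3) and BIRC2 by -0.26. For UBE2H 1 of 4 rose (median 0.08, 25% called), MAEA, a CTLH subunit, by 0.25.

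**Figure D4:**
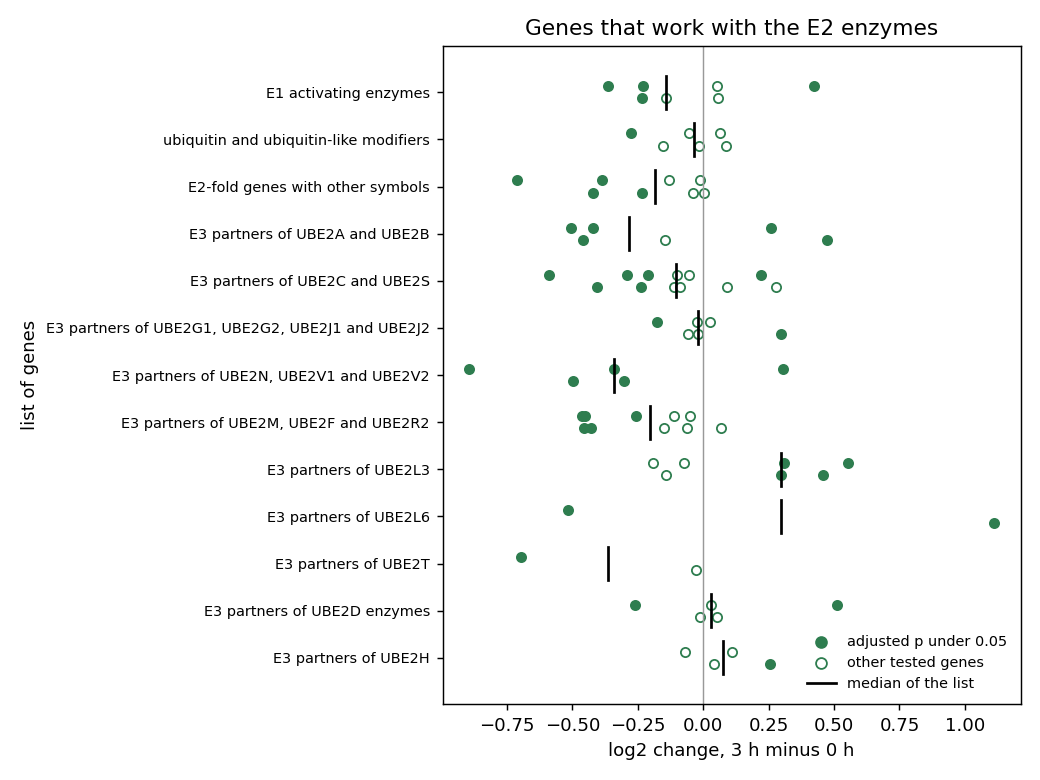
Log2 change, 3 h minus 0 h, of each tested gene that works with the E2 enzymes, by list, with filled points for an adjusted p under 0.05 in limma and a bar at the list's median. Points lie on both sides of 0 in most lists. TRIM25 is farthest to the right at 1.11 and SHPRH (-0.90) is farthest to the left. The cullin-RING list has filled points only below 0, as do the lists of modifiers, E2-fold genes and UBE2T partners.

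The surroundings of the genes were counted, with no test. Within 500 kb of the 7 genes that rose there was a median of 24 protein-coding genes (10 to 47), and within 500 kb of the 7 that fell a median of 13 (3 to 15). Over all genes tested the medians were 16 for genes that rose and 8 for those that fell, in the same order. The ranges overlap, since UBE2R2 (10) and UBE2H (11) rose. UBE2S lies among 47 neighbours, and UBE2V2, UBE2N and UBE2E1 among 3, 4 and 5. Genes without a call ran from 1 for UBE2E2 and UBE2E3 to 44 for UBE2J2. Median gene lengths were 33.2 kb for E2 genes that rose and 57.6 kb for those that fell, against 30.4 kb and 36.1 kb over all tested genes. With the trend of each array on gene density removed, 13 of the 14 calls held, UBE2O changed by 0.30 without passing, and UBE2E3 (0.31), UBE2V1 (0.22) and UBE2J1 (0.21) were added as higher. The decreases of UBE2N (-0.15), UBE2V2 (-0.24) and UBE2E1 (-0.28) were smaller by over 1.5 times. Among the named partners UBA6, UBA3, ATG10, CDC16, SYVN1 and DERL1 were then not called.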

How the data were processed

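Per the labels' protocols, RNA of 6 ARPE-19 samples was labelled by 3′ in vitro transcription, 1 array per sample. The deposited values of 49372 probe sets are on a log2 scale, as read from the values. MAS5 and RMA stand in the submitters' processing notes, with neither version nor role. Probe sets were named by the platform annotation (44988 with 1 symbol, 1832 with several, 2473 with none, 79 controls).

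Each gene was read from its brightest probe set, and 5911 genes under the 40th percentile (4.64) were left out. The 3 h and 0 h groups were fitted in R 4.3.3 with limma 3.58.1 (lmFit, eBayes), tested on simulated data, with Benjamini-Hochberg adjustment over all tested genes. Figures used matplotlib 3.10.9. Spike controls were not tested. For actin and GAPDH, the 5′ minus 3′ difference gave p = 0.1 each in a two-sided exact permutation test, the lowest value it can reach. Neighbouring genes were counted with RefSeq's table of GRCh38.p14, and the file names no build. Array number limits precision.

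Members, lists and tests were chosen with earlier results of these data known. Array values are given for called members, and from each of 13 partner lists up to 4 called genes with the largest change are named. Other genes were chosen after their values were seen. Lists of cell type markers served as a check. Alternatives are given in the closing section, and fitting each probe set alone and setting aside _s_at and _x_at probe sets were chosen after seeing the data.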

Additional observations from a re-analysis of the deposited data

How the results depend on the processing

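With every _s_at, _x_at and _a_at probe set left out, 8 E2 genes could be tested, 1 was called higher and 2 lower, the median change was -0.074, and calls over all genes came to 697 higher and 995 lower against 2514 and 3759. Without _s_at and _x_at alone, 2 E2 genes were called lower and the median was 0.077. Leaving out 1 array at a time moved the median from -0.030 to 0.030 (the highest without 3 h replicate 3) and the called probe set differences from 7 to 12. Values that changed sign and were called on either side were those of UBE2Q1 (-0.080) and BIRC6 (0.10) without all 3 suffixes, UBE2J2 (0.43), UBE2A (0.032) and CDC23 (0.013) without _s_at and _x_at, and UBE2J2 (0.20), TSG101 (0.038) and CDC16 (0.046) as means over probe sets. UBE2J1, UBE2K, UBE2J2, UBE2E2, UBE2C and UBE2L6 also changed sign under some setting while called on neither side. The replicate block, the number in the titles as a pair, gave 7 higher, 7 lower, a median of -0.02 and 9 called differences, kept all 14 calls and lost DERL1 (-0.18, adjusted p 0.0723 in limma). Deviations of same-numbered arrays correlated at -0.04, -0.02 and -0.19, so the numbers were not taken as pairs. At a threshold of 0.01, 11 of the 14 calls held. Median centring or moderation with a trend kept all 14 and added 3 each (UBE2E3 and UBE2V1 in both). The median of all tested genes shifted by at most 0.02 with centring. The number of arrays, 3 a group, and the signal over background limit what could be called.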
